A study of Capra hircus with 6 samples.

Results

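The respiratory chain was followed in peripheral blood mononuclear cells (PBMC, the lymphocytes, monocytes and dendritic cells of blood) of goat kids, across the genes of the mitochondrial genome and of the nuclear genome that encode its parts. Members were taken by gene symbol alone. The mitochondrial set holds the 13 protein-coding genes of the mitochondrial genome, and the nuclear set holds every row of the count table named as a subunit of complex I (NDUFA, NDUFB, NDUFC, NDUFS, NDUFV), complex II (SDHA to SDHD) or complex V (ATP5), together 58 rows. These 71 genes are members of 24779 in the table. Nuclear subunits of complex III (UQCR, CYC1) and of complex IV (COX4 to COX8), with their tissue isoforms COX4I2, COX6A2, COX7A1, COX8B, COX6B2 and COX7B2, were not analysed here. NDUFA4, named as a complex I gene, is known as a complex IV subunit and was counted there. ATP5S and ATP5SL matched by name and stay with complex V in all counts, although their later names (DMAC2L and DMAC2) mark them as relatives of the complexes, not as subunits of ATP synthase.

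The study set kids fed replacer milk (3 libraries) against kids fed doe's milk (3 libraries), the feed being the one difference between the groups that the labels give. No age, breed or length of feeding stands in the labels, which call the libraries biological replicates. Total RNA was sequenced and counted per gene, with 25023210 to 57204363 counts per library. Levels are given in CPM, the usual counts relative to a library's whole total.

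The respiratory chain sits in the inner mitochondrial membrane. Complex I takes electrons from NADH and complex II from succinate. Coenzyme Q carries them to complex III, cytochrome c carries them on to complex IV, where oxygen is reduced, and complex V uses the proton gradient to make ATP. Complex II is encoded in the nucleus only, while the others are assembled from subunits of both genomes. Mitochondrial messenger RNAs are cut from long transcripts of the circular genome, with tRNAs between most of the genes. In blood, resting lymphocytes draw on this chain for most of their ATP, platelets carry mitochondria without a nucleus, and neutrophils have few mitochondria.

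The 6 libraries were not of a kind. Replacer-milk library 1 was transcript-like, and so were doe-milk libraries 1 and 2: their counts had a Spearman correlation of 0.374 to 0.387 with gene length, introns included, across 23022 genes with a listed length. In replacer-milk libraries 2 and 3 and in doe-milk library 3 it was 0.893 to 0.896. Summed B cell markers were far lower there, at 318, 312 and 218 CPM. In replacer-milk library 1 they summed to 2552 CPM, and in doe-milk libraries 1 and 2 to 2260 and 2159 CPM. CD79A, of the B cell receptor, stood at 714 CPM in replacer-milk library 1 and 610 and 526 CPM in doe-milk libraries 1 and 2, but at 1.40 to 1.47 CPM in the other 3. CD3E of T cells stood at 490 CPM in replacer-milk library 1 and 479 and 405 CPM in doe-milk libraries 1 and 2. It was at 23.3 and 22.4 CPM in replacer-milk libraries 2 and 3 and 13.3 CPM in doe-milk library 3. Not every marker was lower: PAX5 of B cells was at 246 and 239 CPM in replacer-milk libraries 2 and 3 and 111 CPM in doe-milk library 3. In replacer-milk library 1 PAX5 was at 49.6 CPM, and in doe-milk libraries 1 and 2 at 34.7 and 39.4 CPM. The feeds were therefore compared with replacer-milk library 1 against doe-milk libraries 1 and 2. The 3 libraries that follow gene length are described apart. That leaves 1 library on the replacer-milk side, which is assumed to vary like the doe-milk libraries, and 1 residual degree of freedom.

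No member of the respiratory chain passed the test between the feeds in the transcript-like libraries. Of 71 members, all of which were tested, 0 passed edgeR's quasi-likelihood test with Benjamini-Hochberg adjustment over all genes, where 0.0173% of the 17356 genes tested did (3 genes, all listed by a LOC number only: LOC102181554, LOC108637289 and LOC102186914, named after their values were seen). Their smallest adjusted p was 0.905, and 2 members had an unadjusted p under 0.05 (ATP5H and ATP5J), against 5.35% of all genes. DESeq2 and limma voom also called 0 members. Most of the spread among the mitochondrial genes lay within doe milk: 9 of 13 had at least 1.40 times the level in doe-milk library 2 that they had in doe-milk library 1, while ND2, ND3, ND4L and ND5 had ratios between 0.843 and 1.12, and replacer-milk library 1 lay close to doe-milk library 1. In RNA from a mixed cell pool, fewer cells of a type and less RNA per cell cannot be told apart.

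Mitochondrial messages took 1.98% of all counts in replacer-milk library 1 (95% Wilson interval 1.975 to 1.983), against 2.08% (2.076 to 2.084) and 3.30% (3.29 to 3.30) in doe-milk libraries 1 and 2. The nuclear members took 0.544% (0.542 to 0.546) in replacer-milk library 1, against 0.615% (0.612 to 0.617) and 0.523% (0.522 to 0.525) in doe-milk libraries 1 and 2. Intervals cover counting error only. Replacer-milk library 1 was the lowest of the 3 for the mitochondrial genome, by a margin small beside the gap between the doe-milk libraries, and lay between them for the nuclear one. For each count of a nuclear member there were 3.63 counts of a mitochondrial one in replacer-milk library 1, against 3.38 and 6.30 in doe-milk libraries 1 and 2. Thus doe-milk library 2 held the most mitochondrial and the least nuclear message of the chain. By complex, the mitochondrial genes of complex IV summed to 10979 CPM in replacer-milk library 1, against 12300 and 18642 CPM in doe-milk libraries 1 and 2. Those of complex I summed to 5828 CPM in replacer-milk library 1, against 5645 and 8146 CPM in doe milk, and those of complex V to 1468 CPM against 1700 and 3343 CPM. The nuclear genes of complex I summed to 2117 CPM in replacer-milk library 1, against 2473 and 1997 CPM in doe milk. Those of complex II summed to 350.4 CPM in replacer-milk library 1, against 351.5 and 347.2 CPM in doe milk, and those of complex V to 2881 CPM against 3195 and 2779 CPM. Complex II, with no mitochondrial gene, thus had nearly the same sum in the 3 libraries.

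**Figure D1:**
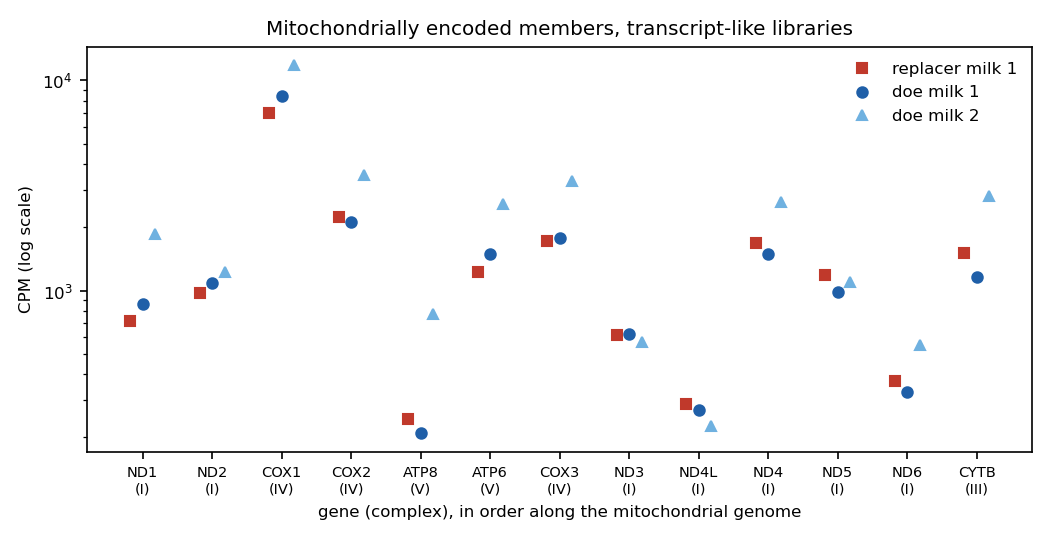
CPM (log scale) of the 13 mitochondrially encoded members in the 3 transcript-like libraries, with genes in their order along the mitochondrial genome and the complex in parentheses; each point is 1 library. Replacer-milk library 1 (squares) has a median ratio of 1.05 to doe-milk library 1 (circles), while doe-milk library 2 (triangles) is higher than doe-milk library 1 for 11 of 13 genes and lower for ND3 and ND4L.

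COX1, the catalytic core of complex IV that reduces oxygen, was the most counted member. It stood at 7031 CPM in replacer-milk library 1, against 8394 and 11780 CPM in doe-milk libraries 1 and 2 (log2 fold change −0.63, with a standard error (SE) of 0.26 and an edgeR adjusted p of 0.945). COX2, which takes electrons from cytochrome c, stood at 2232 CPM in replacer-milk library 1 and at 2127 and 3550 CPM in doe-milk libraries 1 and 2. COX3, the remaining mitochondrial subunit of the complex, stood at 1716 CPM in replacer-milk library 1 and at 1779 and 3312 CPM in doe-milk libraries 1 and 2. For COX2 and COX3 the replacer-milk value was close to doe-milk library 1, and the fold changes of −0.46 and −0.68 came mostly from doe-milk library 2.

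CYTB, the cytochrome b of complex III, was at 1511 CPM in replacer-milk library 1 and lay between doe-milk libraries 1 and 2, at 1157 and 2831 CPM. Its log2 fold change was −0.51 (SE 0.72), with a standard error larger than the change. ATP6 forms part of the proton channel of ATP synthase, and was at 1224 CPM in replacer-milk library 1 against 1490 and 2569 CPM in doe-milk libraries 1 and 2. ATP8, whose reading frame overlaps that of ATP6, was at 245 CPM in replacer-milk library 1 against 209 and 775 CPM in doe-milk libraries 1 and 2. Doe-milk library 2 thus had 3.70 times the ATP8 of doe-milk library 1, the widest ratio among the members, and the log2 fold change of ATP8 (−1.12, SE 1.20) rested on that library: it was 0.11 without it.

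The 7 mitochondrial subunits of complex I sit in its membrane arm, which pumps protons. They did not move as a block. ND1, next to the site where coenzyme Q is reduced, stood at 719 CPM in replacer-milk library 1, below doe-milk libraries 1 and 2 at 860 and 1851 CPM (log2 fold change −1.03, SE 0.60). ND4 stood at 1679 CPM in replacer-milk library 1 and at 1488 and 2625 CPM in doe-milk libraries 1 and 2. ND6, the member encoded on the other strand, stood at 371 CPM in replacer-milk library 1 and at 331 and 553 CPM in doe-milk libraries 1 and 2. For ND4 and ND6 the replacer-milk library lay between the doe-milk libraries. The remaining 4 subunits had log2 fold changes between −0.36 and 0.10. ND2 was at 971 CPM in replacer-milk library 1 and at 1091 and 1220 CPM in doe-milk libraries 1 and 2. ND3 was at 618 CPM in replacer-milk library 1, against 619 and 572 CPM in doe milk. ND4L was at 287 CPM in replacer-milk library 1, against 269 and 227 CPM in doe milk. ND5 was at 1183 CPM in replacer-milk library 1, above doe-milk libraries 1 and 2 in plain CPM at 987 and 1097 CPM (log2 fold change 0.07, SE 0.19).

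Of the 13 mitochondrial genes, 11 had a negative log2 fold change, where 50.6% of all genes did. After TMM scaling 7 were lower than in either doe-milk library (33.2% of all genes were), 0 were above both, where 34.4% were, and 6 were between them, where 32.4% were. Under other scalings the count below both fell to as few as 5. In plain CPM ND3 and COX2 lay between the doe-milk libraries, and ND4L and ND5 were above both. Without a TMM factor 23.8% of all genes were below both and 46.9% above both. Over the 13 mitochondrial genes, the ratio of doe-milk library 2 to doe-milk library 1 ran from 0.843 (ND4L) to 3.70 (ATP8) with a median of 1.67, where the median over all genes tested was 0.991. The median ratio of replacer-milk library 1 was 1.05 to doe-milk library 1 and 0.629 to doe-milk library 2. The 4 genes with the lowest ratios, none above 1.12, were ND2, ND3, ND4L and ND5, all of complex I. ND3 and ND4L, which are neighbours on the genome, were the only mitochondrial members with less message in doe-milk library 2 than in doe-milk library 1. Reads that cover both genes of an overlapping pair (ATP8 with ATP6, ND4L with ND4) may be left out or split by the counting, whose settings are not stated, and without strand the ND6 reads cannot be told from the antisense strand of its neighbour.

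Per kilobase of gene, which allows levels of different genes to be compared, COX1 led in all 3 libraries at 4551 CPM per kb in replacer-milk library 1 and 5433 and 7624 CPM per kb in doe-milk libraries 1 and 2. COX2 came next and COX3 after it in all 3. ND5 was the lowest in all 3, at 650 CPM per kb in replacer-milk library 1 and at 542 and 602 CPM per kb in doe-milk libraries 1 and 2. ATP8 and ATP6, which share a message, stood at 1236 and 1797 CPM per kb in replacer-milk library 1. In doe-milk library 1 they stood at 1058 and 2189 CPM per kb, and in doe-milk library 2, where their levels came close, at 3913 and 3772 CPM per kb. Across the 13 genes, which share their libraries and their genome, the Spearman correlation of the levels per kb was 0.951 between replacer-milk library 1 and doe-milk library 1 and 0.857 between replacer-milk library 1 and doe-milk library 2. Between doe-milk libraries 2 and 1 it was 0.824.

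Most nuclear subunits of complex I had slightly negative fold changes, and none passed the test. Of 36 members, 34 had a negative log2 fold change (median −0.18, range −0.60 to 0.41), where 50.6% of all genes did and the median of all genes was −0.01. After TMM scaling 22 of these members were below both doe-milk libraries, 1 was above both and 13 were between, where the shares of all genes were again 33.2%, 34.4% and 32.4%. Over all 58 nuclear members the count of negative values was 51, against 39 without a TMM factor and 40 without doe-milk library 1. Without a TMM factor the median of all genes moved to 0.11 and that of these members to −0.07. Of all 58 nuclear members, 36 were below both with the factor and 24 without it, where 23.8% of all genes were below both and 46.9% above both. Members share their libraries, so their number says nothing of the spread between animals.

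**Figure D2:**
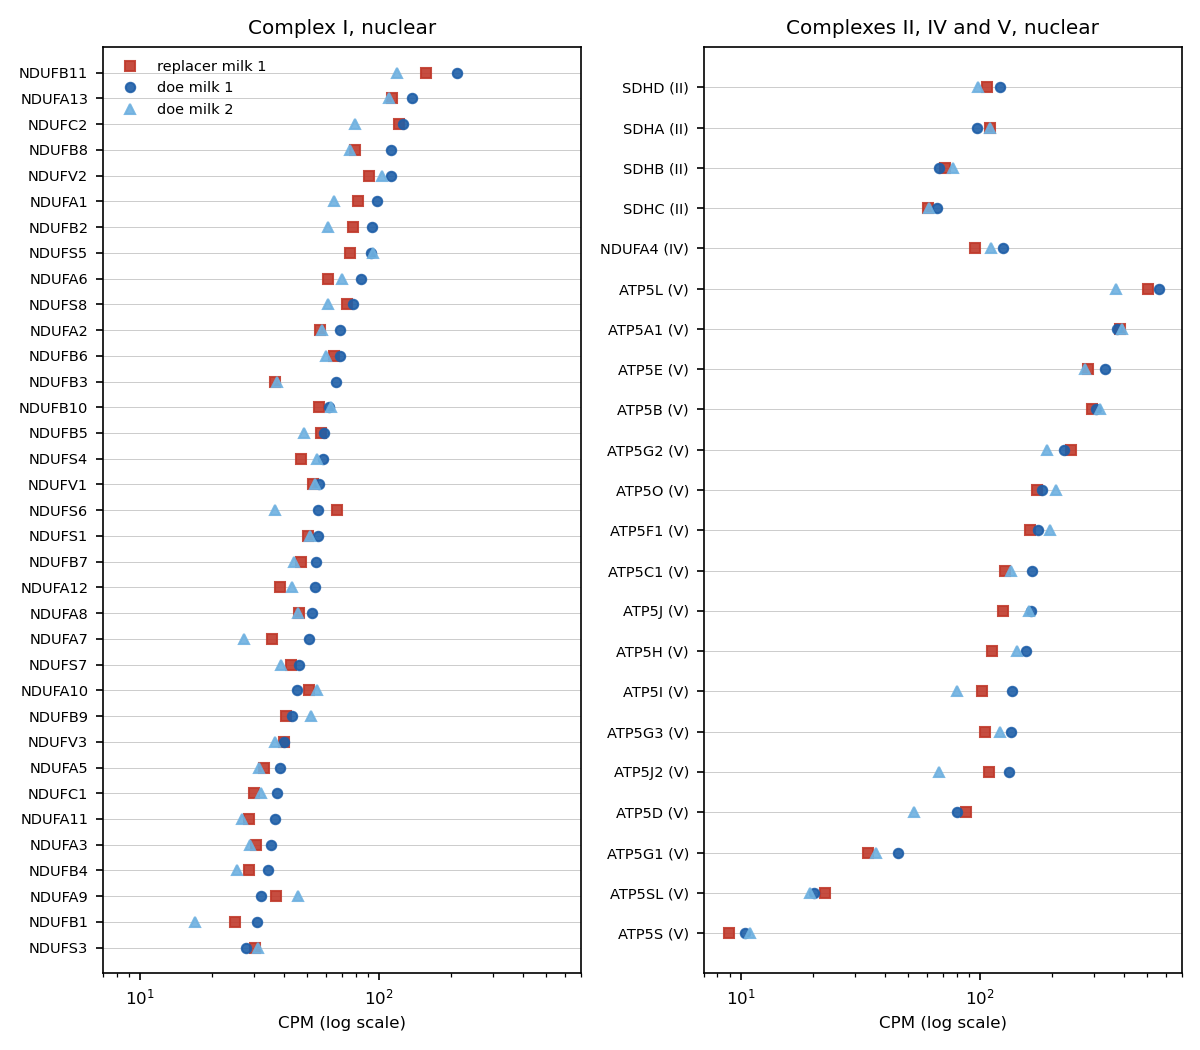
CPM (log scale) of the nuclear members (1 of the 58 is not drawn) in the 3 transcript-like libraries, complex I on the left and complexes II, IV and V on the right, sorted within each complex by doe-milk library 1; each point is 1 library. Replacer-milk library 1 (squares) sits below both doe-milk libraries 1 (circles) and 2 (triangles) for genes such as ATP5H and ATP5J and between them for ATP5L, and the doe-milk libraries lie far apart for genes such as NDUFB11, NDUFA7, NDUFB1 and ATP5J2.

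The core of complex I holds the subunits that bind NADH and carry the iron-sulfur clusters, and 2 of them had values close together. NDUFV1, which binds NADH, was at 52.8 CPM in replacer-milk library 1 against 56.1 and 54.2 CPM in doe-milk libraries 1 and 2. NDUFS1, the largest iron-sulfur subunit, was at 50.4 CPM in replacer-milk library 1 against 55.4 and 51.4 CPM in doe milk. NDUFV1 and NDUFS1 had log2 fold changes of −0.17 and −0.19, each with an SE of 0.21, so the shift was no wider than its error. NDUFV2, also of the core, was below both, at 90.7 CPM in replacer-milk library 1 against 112 and 103 CPM in doe milk (−0.36, SE 0.20). The core subunits NDUFS3, NDUFS7 and NDUFS8 had log2 fold changes of −0.06, −0.10 and −0.03.

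Accessory subunits surround the core and are needed for its assembly and stability, and they held both ends of the range. NDUFB3 had the lowest log2 fold change (−0.60, SE 0.39), at 36.8 CPM in replacer-milk library 1 and 66.2 and 37.4 CPM in doe-milk libraries 1 and 2. Replacer-milk library 1 thus matched doe-milk library 2, and doe-milk library 1 stood apart. NDUFS5 was lower against both, at 75.6 CPM in replacer-milk library 1 and 92.8 and 94.1 CPM in doe milk (−0.42, SE 0.20, edgeR adjusted p = 0.975). NDUFA6 was at 61.5 CPM in replacer-milk library 1 and at 84.4 and 70.0 CPM in doe milk (−0.44, SE 0.22, edgeR adjusted p = 0.979). Neither passed the test. NDUFS6, a zinc-binding subunit, was the member above both doe-milk libraries, at 66.5 CPM in replacer-milk library 1 against 55.8 and 36.9 CPM in doe milk (log2 fold change 0.41, SE 0.29).

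The most counted nuclear subunits of complex I were NDUFB11 and NDUFA13. NDUFB11, a membrane-arm subunit, stood at 158 CPM in replacer-milk library 1, between doe-milk libraries 1 and 2 at 212 and 119 CPM. NDUFA13, also known for a part in cell death, stood at 113 CPM in replacer-milk library 1 and at 138 and 111 CPM in doe-milk libraries 1 and 2. NDUFC2 stood at 121 CPM in replacer-milk library 1 and at 126 and 79.0 CPM in doe-milk libraries 1 and 2, for a log2 fold change of 0.13 (SE 0.31). In all 3 genes doe-milk library 2 was the lowest in CPM. The same held in weaker form across the group, with 30 of 36 lower in doe-milk library 2 than in doe-milk library 1 (median ratio 0.826), where 51.4% of all genes were.

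Complex II, which also belongs to the citric acid cycle, had all 4 subunits within a narrow range. SDHA, the flavoprotein that oxidises succinate, stood at 110 CPM in replacer-milk library 1 and at 97.0 and 110 CPM in doe-milk libraries 1 and 2. SDHB, its iron-sulfur partner, stood at 71.8 CPM in replacer-milk library 1 and at 67.4 and 77.4 CPM in doe milk. The membrane anchors SDHC and SDHD followed: SDHC was at 61.0 CPM in replacer-milk library 1 against 66.1 and 61.3 CPM in doe milk. SDHD was at 108 CPM in replacer-milk library 1 against 121 and 98.3 CPM in doe milk. The 4 log2 fold changes ran from −0.17 to −0.02 (SDHA, which was at 0.09 without a TMM factor), each with an SE of 0.20 to 0.22, and the ratio of doe-milk library 2 to 1 ran from 0.812 to 1.15.

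NDUFA4, the nuclear member of complex IV, was at 95.9 CPM in replacer-milk library 1 against 125 and 112 CPM in doe-milk libraries 1 and 2. It was below both, with a log2 fold change of −0.42 (SE 0.20), and did not pass (edgeR adjusted p = 0.976).

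Complex V held both members with an unadjusted p under 0.05, each a subunit of the stalk that holds the catalytic head in place. ATP5H, subunit d, stood at 113 CPM in replacer-milk library 1, below doe-milk libraries 1 and 2 at 156 and 144 CPM (a log2 change of −0.52, SE 0.20, with an edgeR adjusted p of 0.905). ATP5J, coupling factor F6, stood at 125 CPM in replacer-milk library 1, below doe-milk libraries 1 and 2 at 163 and 160 CPM (−0.48, SE 0.19, edgeR adjusted p = 0.921). For both, the replacer-milk library was apart from a close pair of doe-milk libraries, a pattern that picking members by small p favours. Other stalk subunits were nearer to doe milk: ATP5F1, subunit b, stood at 162 CPM in replacer-milk library 1 against 176 and 196 CPM in doe milk. ATP5O, which joins stalk and head, stood at 174 CPM in replacer-milk library 1 against 181 and 208 CPM in doe milk.

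The catalytic head had close values across the libraries. ATP5A1, the alpha subunit, was at 387 CPM in replacer-milk library 1, in plain CPM between doe-milk libraries 1 and 2 at 373 and 394 CPM. ATP5B, the beta subunit with the catalytic site, was at 295 CPM in replacer-milk library 1 against 305 and 316 CPM in doe milk. ATP5D, the delta subunit of the central stalk, was above both, at 87.3 CPM in replacer-milk library 1 against 80.0 and 52.9 CPM in doe milk (log2 fold change 0.28, SE 0.29). The other central stalk genes, ATP5C1 and ATP5E, went the other way and were below both after TMM scaling. Their log2 fold changes were −0.35 and −0.22, each with an SE of 0.21.

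ATP5G1, ATP5G2 and ATP5G3 encode the same mature ring subunit, and their values did not go the same way. ATP5G1 was at 34.0 CPM in replacer-milk library 1 against 45.6 and 36.9 CPM in doe-milk libraries 1 and 2. ATP5G3 was at 105 CPM in replacer-milk library 1 against 135 and 122 CPM in doe milk. ATP5G2 was at 241 CPM in replacer-milk library 1, above doe-milk libraries 1 and 2 in plain CPM at 224 and 191 CPM. Log2 fold changes were −0.39 and −0.40 for ATP5G1 and ATP5G3 and 0.10 for ATP5G2, none past the test, and the difference between them was not tested.

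The small membrane subunits e, f and g, which shape ATP synthase dimers, lay far apart in the doe-milk libraries. ATP5L, subunit g and the most counted nuclear member, was at 506 CPM in replacer-milk library 1 and at 559 and 371 CPM in doe-milk libraries 1 and 2. ATP5I, subunit e, was at 102 CPM in replacer-milk library 1 and at 136 and 80.0 CPM in doe milk. ATP5J2, subunit f, was at 109 CPM in replacer-milk library 1 and at 132 and 67.7 CPM in doe milk. Replacer-milk library 1 lay between the doe-milk libraries for all 3. Over complex V, 12 of 17 members had a negative log2 fold change (median −0.22, range −0.52 to 0.28), against 50.6% of all genes. After TMM scaling 11 were below both doe-milk libraries (33.2% of all genes) and 2, ATP5D and ATP5SL, above both (34.4%).

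**Figure D3:**
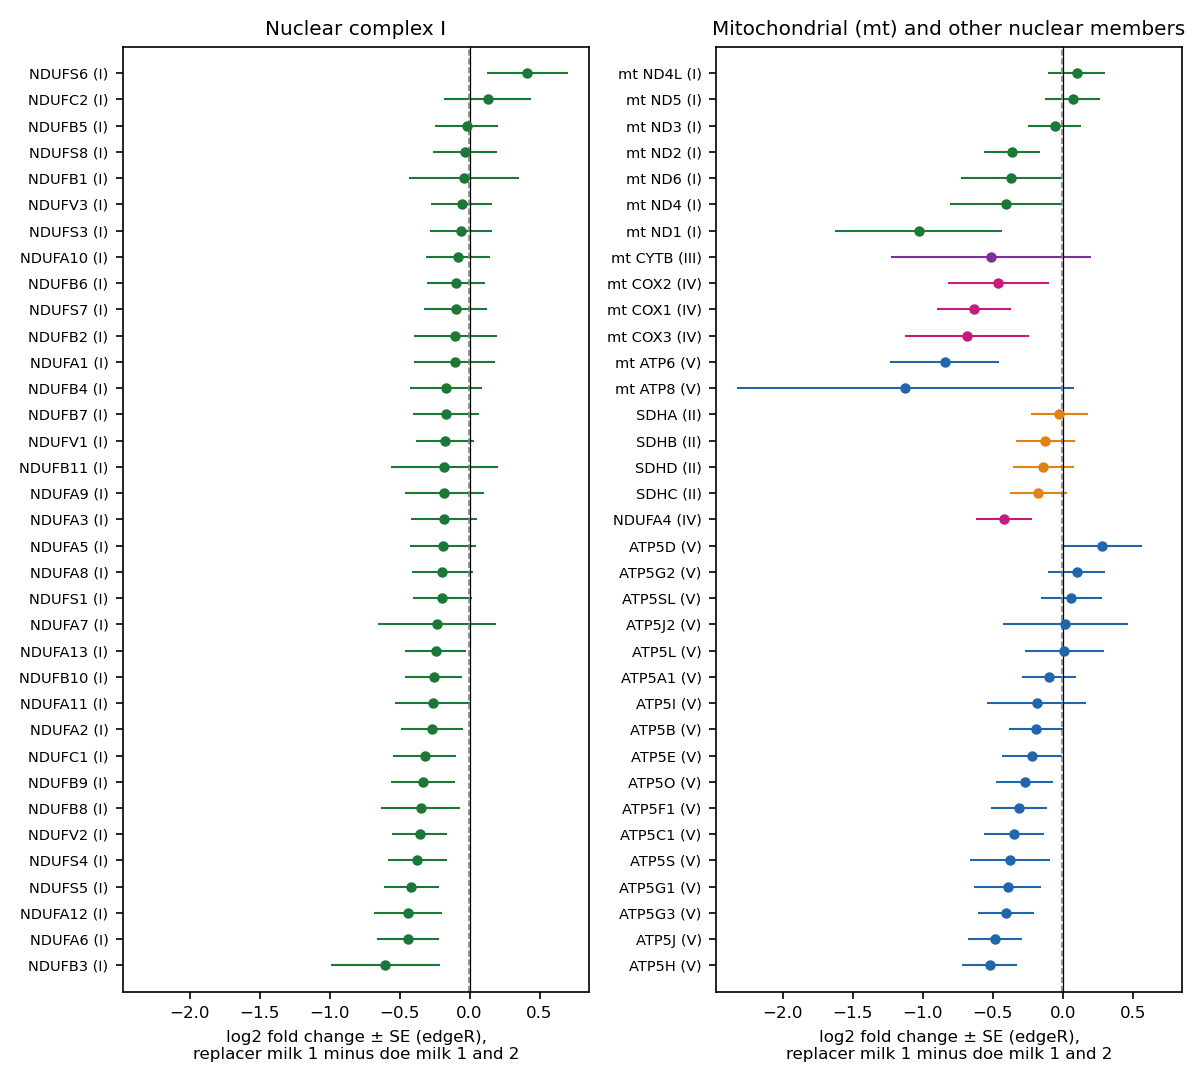
Log2 fold change (replacer-milk library 1 minus doe-milk libraries 1 and 2) with its standard error from edgeR for the members (1 of the 71 is not drawn), nuclear complex I on the left, mitochondrial (mt) and other nuclear members on the right, coloured by complex; the dashed line is the median of all genes at −0.01. Most points lie left of 0, from −1.12 for ATP8 to 0.41 for NDUFS6, and the widest errors are those of ATP8 (1.20) and CYTB (0.72).

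Set side by side, the doe-milk libraries differed from each other in both genomes, in opposite directions. Of the 13 mitochondrial members, 11 were higher in doe-milk library 2 than in doe-milk library 1, where 48.6% of all genes were. Of the 58 nuclear members, 45 were lower in doe-milk library 2 (median ratio 0.848), where 51.4% of all genes were. Among nuclear members the ratio ran from 0.514 for ATP5J2 to 1.42 for NDUFA9, and its Spearman correlation with gene length, introns included, was 0.356 over 58 genes that share the libraries. The median log2 fold change of the mitochondrial members was −0.46. Leaving out doe-milk library 1 gave −0.79, and leaving out doe-milk library 2 gave −0.04. That of the nuclear members was −0.18, against −0.12 with the first and −0.32 with the second left out, all values of 1 library against 1 with no test.

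**Figure D4:**
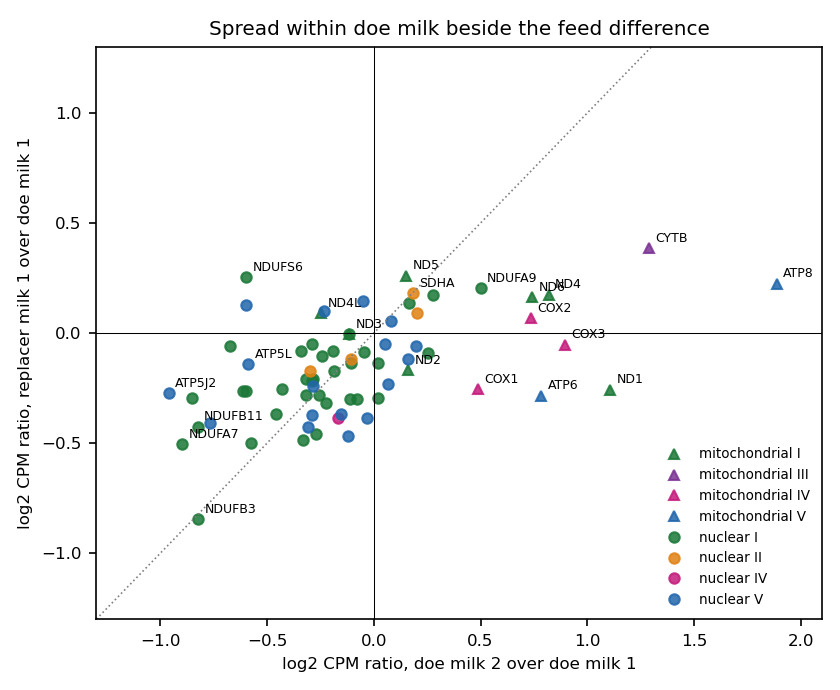
For each member (1 is not drawn), the log2 CPM ratio of doe-milk library 2 to doe-milk library 1 (x axis) and of replacer-milk library 1 to doe-milk library 1 (y axis), with triangles for mitochondrial and circles for nuclear genes, coloured by complex; the dotted line marks equal ratios. Both axes share doe-milk library 1, and the mitochondrial points spread along the x axis up to the ATP8 ratio of 3.70 while their median ratio on the y axis is 1.05.

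Markers of other blood cells also differed between these libraries. The platelet list (8 of 9 genes in the table, 7 of 8 with a negative fold change, PPBP among them) summed to 721 CPM in replacer-milk library 1 and to 577 and 874 CPM in doe-milk libraries 1 and 2, most of it from TUBB1 (555 CPM in replacer-milk library 1, 406 and 648 CPM in doe milk). The platelet, erythroid and NK cell sums were each highest in doe-milk library 2, as the mitochondrial share was, and the platelet and NK cell sums were lowest in doe-milk library 1, where the mitochondrial share was not. The erythroid list (6 of 10 genes in the table) summed to 617 CPM in replacer-milk library 1 and to 1622 and 1800 CPM in doe milk, and the neutrophil list (9 of 11) to 321 CPM in replacer-milk library 1 and 744 and 447 CPM in doe milk. Plasma cell markers (6 of 6) summed to 691 CPM in replacer-milk library 1 and to 1407 and 975 CPM in doe milk. The NK cell list (4 of 7) summed to 123 CPM in replacer-milk library 1 and to 96.3 and 158 CPM in doe milk. T cell (8 of 9), B cell (7 of 7) and monocyte (5 of 8) lists summed to 1909, 2552 and 349 CPM in replacer-milk library 1, against 1858, 2260 and 294 CPM in doe-milk library 1 and 1542, 2159 and 289 CPM in doe-milk library 2. HBBC, a beta globin, made up nearly all of the erythroid sum, and HBM was at 0 in replacer-milk library 1 and in doe-milk library 1. The erythroid list did not go one way: of 4 tested genes, 2 had a negative and 2 a positive fold change. ALAS2 was at 9.62 CPM in replacer-milk library 1, above doe-milk libraries 1 and 2 at 1.93 and 5.12 CPM. Skeletal and heart muscle markers (7 of 10) summed to 18.1 CPM in replacer-milk library 1 and to 8.14 and 6.07 CPM in doe milk, with MB at 0 in replacer-milk library 1 and doe-milk library 2 and CKM at 0 in doe-milk library 1. The part of these cells in the values of the chain was not tested.

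Genes that build and feed the chain were described in the same fit, and 0 passed in any list. Of 26 assembly factors, 21 had a negative log2 fold change (median −0.15), against 50.6% of all genes. SDHAF2, which helps attach the flavin to SDHA, was at 28.5 CPM in replacer-milk library 1 against 35.0 and 33.8 CPM in doe-milk libraries 1 and 2. NDUFAF4, a complex I assembly factor, was at 4.53 CPM in replacer-milk library 1 against 7.22 and 5.52 CPM in doe milk, and ATPAF1, which assembles the head of ATP synthase, at 26.6 CPM against 30.1 and 30.0 CPM. Of 77 mitochondrial ribosomal protein genes, 61 were negative (median −0.16), also against 50.6%, with MRPS33 at 28.7 CPM in replacer-milk library 1 against 46.6 and 44.9 CPM in doe milk (a log2 change of −0.79, SE 0.22, with an edgeR adjusted p of 0.708). The medians of both lists were close to that of the nuclear members. After TMM scaling 15 of 26 and 41 of 77 genes were lower than in either doe-milk library, against 33.2% of all genes. Without a TMM factor 23.8% of all genes were, but neither list was counted that way. Part of these genes lay between the doe-milk libraries in plain CPM. TMEM70, an assembly factor, was at 17.8 CPM in replacer-milk library 1 against 21.3 and 16.8 CPM in doe milk.

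Among electron carriers and membrane carriers, 19 of 24 were negative (median −0.15), against 50.6% of all genes. UCP2, a proton and metabolite carrier of immune cells, had the smallest p of this list, at 479 CPM in replacer-milk library 1 against 825 and 741 CPM in doe-milk libraries 1 and 2 (log2 fold change −0.82, SE 0.20, edgeR adjusted p = 0.648). COQ5, a methyltransferase of coenzyme Q synthesis, was at 9.94 CPM in replacer-milk library 1 against 16.7 and 14.1 CPM in doe milk. SLC25A5, which exchanges ADP for ATP, was at 66.0 CPM in replacer-milk library 1 against 80.1 and 87.7 CPM in doe milk. All 3, named for the smallest p of the list, were lower than in either doe-milk library without passing the test. After TMM scaling 15 of the 24 were below both doe-milk libraries and 2 above both, where 33.2% and 34.4% of all genes were. Without a TMM factor 23.8% of all genes were below both, but the list was not counted that way.

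The citric acid cycle list was split. Of 17 citric acid cycle genes, 7 were negative and 10 positive (median 0.03), where 50.6% of all genes were negative. SUCLG1, of succinyl-CoA ligase, was at 76.5 CPM in replacer-milk library 1 against 90.5 and 92.2 CPM in doe milk, while PDHB, of pyruvate dehydrogenase, was at 48.7 CPM against 27.5 and 38.3 CPM. Fumarase (FH) was at 48.9 CPM in replacer-milk library 1 against 53.0 and 54.4 CPM in doe milk. Of 27 genes for upkeep and expression of mitochondrial DNA, 19 were negative (median −0.08), against 50.6% of all genes. After TMM scaling 12 were below both doe-milk libraries and 5 above both, where 33.2% and 34.4% of all genes were. Without a TMM factor these shares of all genes were 23.8% and 46.9%, but the list was not counted that way. SLIRP, which stabilises mitochondrial messages, was at 22.1 CPM in replacer-milk library 1 against 32.1 and 24.7 CPM in doe milk. TRMT10C, of mitochondrial RNase P, was at 14.0 CPM against 20.8 and 15.1 CPM, and the transcription factor TFB2M at 8.71 CPM against 10.8 and 10.5 CPM.

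Of 13 regulators, 4 were negative and 9 positive (median 0.10), where 50.6% of all genes were negative. The transcription factors GABPA and NRF1, both known to act on nuclear genes of the chain, went apart: GABPA was at 123 CPM in replacer-milk library 1 against 141 and 157 CPM in doe milk. NRF1 was at 31.2 CPM in replacer-milk library 1 against 21.6 and 25.8 CPM in doe milk. SIRT1, a deacetylase, was at 40.4 CPM in replacer-milk library 1 against 27.5 and 32.6 CPM in doe milk. Of 2 tested genes related to the chain but outside the member rule, NDUFAB1, the mitochondrial acyl carrier protein, was at 36.5 CPM in replacer-milk library 1 against 46.9 and 39.6 CPM in doe milk. NNT, which makes NADPH from the proton gradient, was at 77.8 CPM in replacer-milk library 1 against 54.6 and 75.7 CPM in doe milk.

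Over all 6 libraries, 0 of 71 members passed edgeR's test, as did 0 of 21431 genes (0%), with an adjusted p of at least 0.987. DESeq2 called 1 gene and limma voom 0, neither a member. At an unadjusted p under 0.05 there were 0 members and 123 genes (0.574%). Log2 fold changes were negative for 70 of 71 members, where 51.6% of all genes were, with medians of −1.46 for mitochondrial and −1.12 for nuclear members. The exception was ATP5SL at 0.22 (SE 1.10). The replacer-milk group holds 2 of the 3 libraries that follow gene length, and with library kind as a term 11 of 13 mitochondrial and 35 of 58 nuclear members were negative, with medians of −0.91 and −0.22. No member had all its replacer-milk values under, or all over, its doe-milk values after TMM scaling, where 1.08% of all genes were under and 1.89% over.

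In the 3 libraries that follow gene length, mitochondrial messages were close to absent. All 13 genes together had 360 and 344 counts in replacer-milk libraries 2 and 3 and 313 counts in doe-milk library 3, or 0.00133% and 0.00129% in replacer milk and 0.00125% in doe milk (95% Wilson intervals 0.00120 to 0.00147, 0.00116 to 0.00143 and 0.00112 to 0.00140). Those few counts lay on different genes. In replacer-milk libraries 2 and 3, ND4L took 230 and 176 counts, or 63.9% and 51.2% of the mitochondrial counts. ND5 took another 97 and 110 counts in replacer-milk libraries 2 and 3. In doe-milk library 3 the same genes had 3 and 13 counts, and COX1 (101 counts), ND6 (67 counts) and CYTB (48 counts) led. ND3 had 0 counts in replacer-milk libraries 2 and 3, which allows up to 0.111 and 0.112 CPM, and 4 counts in doe-milk library 3.

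**Figure D5:**
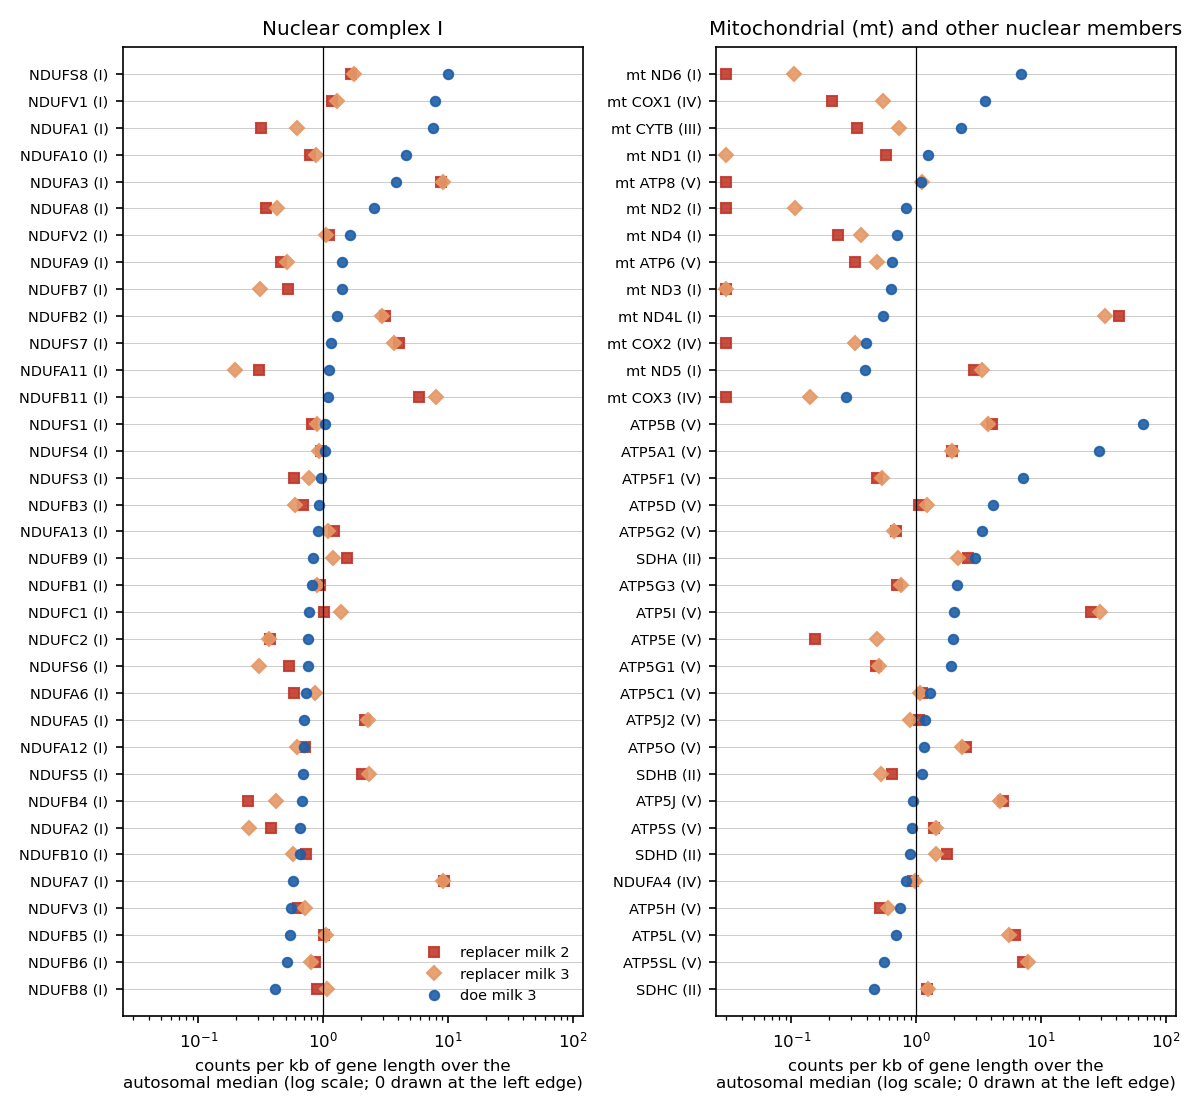
Counts per kb of gene length of the members (1 is not drawn) in the 3 libraries that follow gene length, divided by the median over autosomal genes of the same library (log scale, 0 drawn at the left edge), nuclear complex I on the left, mitochondrial (mt) and other nuclear members on the right, sorted by doe-milk library 3. Nuclear members scatter around 1, replacer-milk libraries 2 and 3 (squares and diamonds) lie close together for most nuclear genes, and doe-milk library 3 (circles) departs from them for genes such as ATP5B, ATP5A1 and ND6.

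Nuclear members in these libraries scattered around what their length gives. Their counts had a Spearman correlation with length of 0.543 and 0.517 in replacer-milk libraries 2 and 3 and 0.629 in doe-milk library 3, across 58 genes, against 0.893 to 0.896 for all genes. Relative to the median counts per kb of 12142 autosomal genes of at least 10000 bases, their median was 0.951 and 0.952 in replacer-milk libraries 2 and 3 and 1.04 in doe-milk library 3, with ranges of 0.154 to 24.95, 0.198 to 29.8 and 0.410 to 65.2. The median was 43.3 in replacer-milk library 1 and 56.1 and 44.6 in doe-milk libraries 1 and 2. NDUFS4, by far the longest member at 113931 bases in the ARS1.2 annotation, stood higher in CPM here than in the transcript-like libraries. It was at 74.1 and 71.2 CPM in replacer-milk libraries 2 and 3 and 87.2 CPM in doe-milk library 3. That is 0.963 and 0.924 times the autosomal median in replacer milk and 1.04 times in doe milk.

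Part of the chain still differed between these libraries. Replacer-milk libraries 2 and 3 were both below doe-milk library 3 for 32 of 58 nuclear members (56.8% of all genes) and both above it for 24 (38.1% of all genes), so the direction was near the background. The replacer-milk mean was over 4-fold below doe-milk library 3 for 12 of 58 nuclear members (9.08% of all genes) and over 4-fold above it for 6 (4.74% of all genes). For the mitochondrial members these counts were 7 and 2, but some of the 7 rest on few reads. ND3 had 4 counts in doe-milk library 3 and 0 in replacer-milk libraries 2 and 3, and COX3 had 4 against 0 and 2. With 1 doe-milk library here, these are descriptions of the libraries with no test. ATP5B stood at 15.8 and 14.6 CPM in replacer-milk libraries 2 and 3 and at 277 CPM in doe-milk library 3, close to the 305 and 316 CPM of the transcript-like doe-milk libraries. ATP5A1 stood at 11.3 and 11.4 CPM in replacer milk and 188 CPM in doe-milk library 3, and ATP5F1 at 5.12 and 5.62 CPM against 82.9 CPM. NDUFA10 was at 20.6 and 23.3 CPM in replacer milk and 132 CPM in doe-milk library 3, above its level in any transcript-like library.

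The opposite was seen for NDUFA7, an accessory subunit of complex I, at 46.2 and 45.3 CPM in replacer-milk libraries 2 and 3 and 3.12 CPM in doe-milk library 3. ATP5I was at 30.6 and 36.6 CPM in replacer milk and 2.72 CPM in doe-milk library 3. ATP5L was at 35.6 and 32.0 CPM in replacer milk and 4.32 CPM in doe-milk library 3. ATP5I stood at 24.95 and 29.8 times the autosomal median per kb in replacer milk, the highest of the nuclear members there, and at 2.03 times in doe-milk library 3. Genes can share reads with copies elsewhere in the genome, which the counts cannot tell apart, and this was not tested for the genes of either direction. Members named in this paragraph and the one before were chosen after their values were seen.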

How the data were processed

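Libraries from total RNA (TRIzol, NEBNext Ultra II, per the labels' protocols) were processed by the authors and deposited as raw counts per gene in whole numbers. The submitters' processing notes name fastp 0.22.0, STAR 2.7.10a and featureCounts 2.0.0. The tools' settings, the strand, the genome build and the annotation were not given in the sources used here. Columns were matched to samples by description and groups taken from titles; nothing beyond the label says that replicates are separate animals, so p-values measure the spread between these samples. All 71 members were found by symbol in the RefSeq table of ARS1.2, used for lengths and gene order; no coordinates or sequences are printed.

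Genes were filtered with filterByExpr, TMM-scaled and tested with edgeR 4.0.16 (robust quasi-likelihood, two-sided, Benjamini-Hochberg adjusted p below 0.05, replacer milk minus doe milk) in R 4.3.3. Standard errors are the log2 fold change over the square root of F. Members, lists and the choice of libraries were made with earlier results of these data known. Named genes are all mitochondrial and complex II members, per nuclear complex the 2 most counted and the 2 with the smallest p in each direction, and up to 3 genes per list. Others were chosen after their values were seen. Values of 1 member, which stays in all counts, are not reported here. Alternatives were other scalings and filters, DESeq2 1.42.0, limma voom (limma 3.58.1), left-out libraries, a replicate block and library kind as a term.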

Additional observations from a re-analysis of the deposited data

How the results depend on the processing

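With 1 replacer-milk library, leaving out a doe-milk library gives values with no test. Under every alternative run 0 members were called in either comparison. In the transcript-like libraries 3 genes were called, against 5 with RLE scaling, upper quartile scaling or the mitochondrial genes left out, 90 with no filter, 148 with DESeq2, and 0 with limma voom or with at least 1 CPM in every library. The cause was not tested. Without a TMM factor the nuclear median was −0.0746, and ND3 (0.0528), SDHA (0.0882) and ATP5A1 (0.0144) turned positive. Leaving out each doe-milk library gave nuclear medians from −0.32 to −0.12. The mitochondrial medians ran from −0.79 to −0.04. Of 537 recomputed values of named genes, 521 kept their direction and 16 reversed. Those reversed by leaving out a doe-milk library ranged as log2 fold changes from −1.78 to 0.11 for ATP8, −1.02 to 0.27 for CYTB, −0.76 to 0.0614 for ND4, −0.0216 to 0.22 for ND4L, −0.00812 to 0.15 for ND5 and −0.70 to 0.0508 for ND6. Nuclear ones ranged from −0.54 to 0.28 for NDUFB11, −0.17 to 0.50 for NDUFC2, −0.28 to 0.0127 for SDHD, −0.12 to 0.0694 for SDHA, −0.26 to 0.33 for ATP5L, −0.0129 to 0.21 for ATP5G2 and −0.0777 to 0.40 for NNT.

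Over all 6 libraries 0 genes were called, against 1 with library kind as a term and 1 with DESeq2. Leaving out a library gave mitochondrial medians from −13.99 (without replacer-milk library 1) to −0.64 (without doe-milk library 2), and nuclear medians from −4.32 (without replacer-milk library 1) to −0.58 (without replacer-milk library 2). Replacer-milk libraries 2 and 3 summed as 1 (added once the data had been seen) gave a mitochondrial median of −0.87. Same-numbered libraries deviated together for replicates 1 and 3 (r = 0.894 and 0.927) and oppositely for replicate 2 (r = −0.886). Replacer-milk library 2 correlated best with doe-milk library 3 (r = 0.926). These values follow library kind: every pair of like kind had an r of at least 0.891, and every mixed pair of at most −0.886. They cannot show whether the numbers pair the samples. With the replicate block 0 genes and 0 members were called, and the medians were −2.30 for mitochondrial and −1.51 for nuclear members. No paired analysis was possible within the transcript-like libraries because the groups share only replicate number 1.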
